A study of Sus scrofa domesticus with 6 samples.

Results

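The unfolded protein response and the secretory chaperones were followed in small intestine of Göttingen minipigs through 35 genes, chosen by gene symbol from a list of endoplasmic reticulum (ER) chaperones, sensors, transcription factors and their target genes. All 35 were found among the 30352 named rows of the expression table, and all 35 were among the 18197 genes kept after a filter on low counts. All 6 animals were wild type and 6 months old, and small intestine was taken on day 14. The IR group (2 animals) received 15 Gy of gamma rays from a 60Co source to the abdomen. The IR_Pra group (2 animals) received the same irradiation and pravastatin, a drug that blocks cholesterol synthesis, given by mouth in divided daily doses of 40 mg in all for 2 weeks. The control group (2 animals) is labelled only as control. The labels do not say which stretch of the small intestine or which layers of its wall were taken, and no group received the drug without irradiation.

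Proteins that a cell secretes or puts in its membranes enter the ER through a translocation channel and are folded there by chaperones and disulfide isomerases. Proteins that fail to fold are sent back to the cytosol and degraded. When unfolded proteins build up, the sensors ATF6, IRE1 (gene ERN1) and PERK (gene EIF2AK3) start the unfolded protein response: ATF6 and the spliced form of XBP1 turn on chaperone and degradation genes, and PERK favours translation of ATF4, which turns on genes of amino acid supply and of cell death. In the intestine this machinery is in heavy use in cells that secrete much protein, such as goblet cells, Paneth cells and plasma cells. By these roles the 35 genes were divided into a chaperone arm of 28 genes (14 ER chaperones and folding enzymes, 4 translocation genes, 7 genes of ER-associated degradation, the sensors ATF6 and ERN1, and XBP1) and an ATF4 arm of 7 (EIF2AK3, ATF4, DDIT3, TRIB3, PPP1R15A, CHAC1 and ASNS).

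Library totals ran from 48600424 to 73975174 counts, and every member had at least 485 counts in every library, except CHAC1 with 41 to 187 counts and TRIB3 with 154 counts in IR 2 and 324 in IR_Pra 1. The IR libraries differed more from each other than those of the other groups: across genes, which are not independent of each other, Pearson r of log2 expression was 0.903 within IR, 0.963 within IR_Pra and 0.965 within control. The summed level of 9 markers of absorptive enterocytes was 49540 CPM (counts scaled to library size) in IR 1 and 1098 CPM in IR 2, against 17780 and 17520 CPM in IR_Pra and 23390 and 25430 CPM in control. IR 2 was thus low in the defining markers of its labelled tissue. In IR 1 the list split. Most of its sum came from APOA1, FABP1 and APOA4, with 21000, 12300 and 8930 CPM, each above both controls. Another 5 of the 9, ANPEP, SI, SLC5A1, VIL1 and LCT, lay below both controls in both IR libraries, as 30% of all genes did. In whole tissue, fewer cells of a type and less RNA per cell cannot be told apart.

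Per transcript length, the chaperones were among the most abundant of the 35 genes. CALR (calreticulin, a lectin chaperone that also holds ER calcium) had the highest level in every group, with 421 ± 94.5 FPKM (fragments scaled by transcript length and depth) in IR, 365 ± 30.3 in IR_Pra and 228 ± 2.62 in control (SD, n = 2 each). PDIA3, a disulfide isomerase for glycoproteins, had 217 ± 5.59 FPKM in IR, 229 ± 33.6 in IR_Pra and 154 ± 11 in control. In control libraries ATF4 stood between CALR and PDIA3, with 192 ± 10.2 FPKM. At the other end, CHAC1, an enzyme that breaks down glutathione, had 1.46 ± 0.0996 FPKM in IR, 0.614 ± 0.199 in IR_Pra and 0.717 ± 0.0343 in control. The sensors were low: in control libraries EIF2AK3 had 6.90 ± 0.846, ATF6 6.96 ± 0.103 and ERN1 4.54 ± 0.0899 FPKM, and of these ATF6 and EIF2AK3 did not differ beyond their spread.

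**Figure D1:**
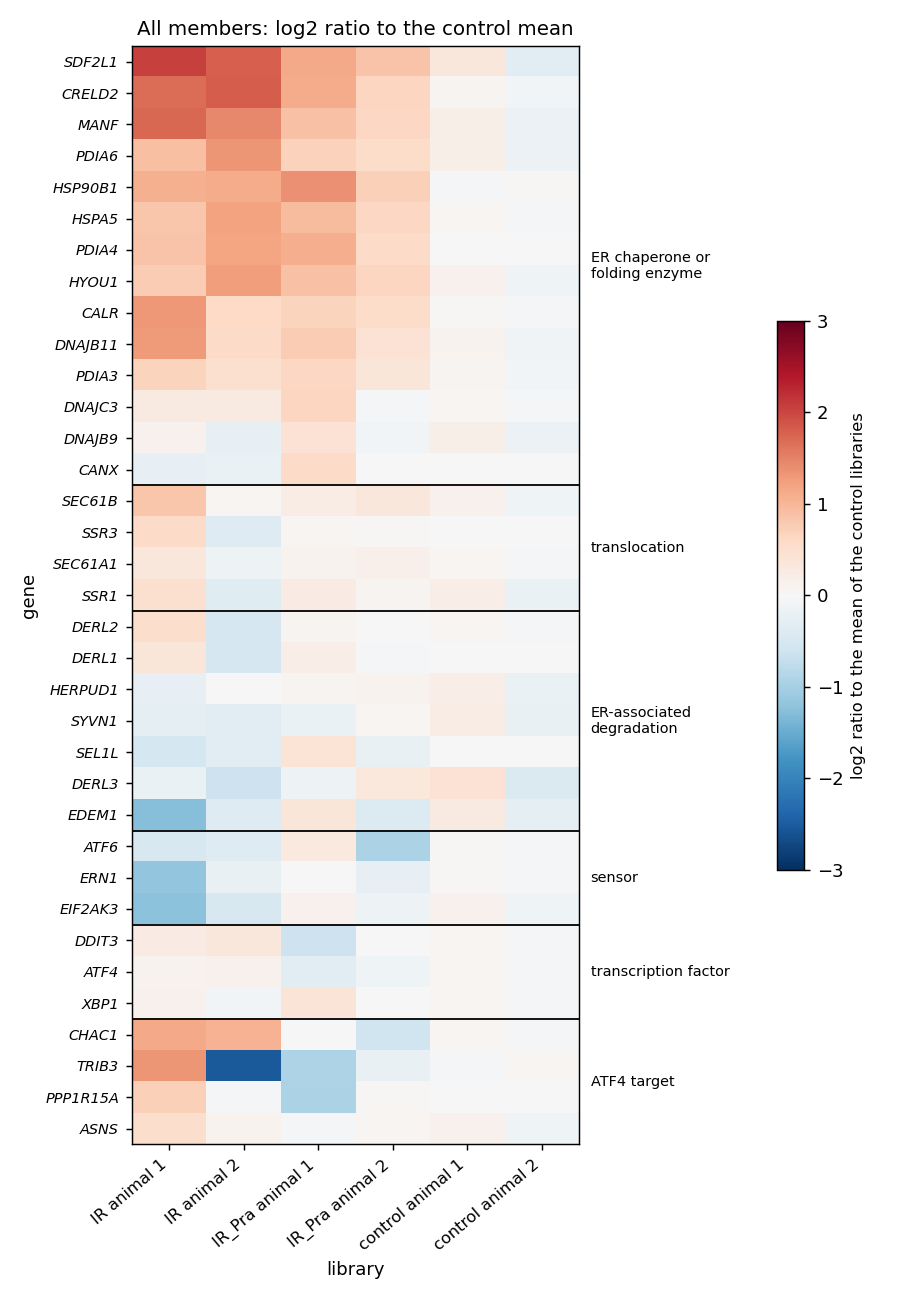
Log2 ratio of each of the 35 genes (rows, grouped by role) to the mean of the control libraries in each library (columns: IR, IR_Pra, control, 2 animals each), with red above and blue below the control mean. The block of 14 ER chaperones and folding enzymes is red in both IR and both IR_Pra columns for most rows, with medians of 0.88 and 1.15 in IR and 0.83 and 0.57 in IR_Pra, while the 3 sensors are blue in both IR columns; TRIB3 runs from 1.31 in IR 1 to -2.53 in IR 2.

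The first comparison asked what had changed in irradiated intestine by day 14. The genes that passed were chaperones or folding enzymes of the ER, and none was a sensor or a transcription factor of the response. Of the 35 genes, 3 rose in IR and 0 fell, at an adjusted p under 0.05 (edgeR's quasi-likelihood test with Benjamini-Hochberg adjustment over all genes tested). Of all genes tested, 3.39% rose and 2.68% fell, 6.06% in all. The 3 that rose, SDF2L1, CRELD2 and MANF, encode soluble ER proteins and are known to be induced by ER stress. Without adjustment, 11 members were higher and 1 lower at a p under 0.05, when 16.4% of all genes were higher and 13.8% lower (30.2% in all). The log2 fold change was above 0 for 24 of the 35 genes, against 51.3% of all genes.

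SDF2L1 (Entrez 100156780, chromosome 14, 50249607 to 50251636 on Sscrofa11.1) encodes a cofactor that helps the chaperone BiP keep its clients from clumping. It had 40.8 and 33.9 CPM in IR, 21.4 and 17.8 CPM in IR_Pra, and 12.4 and 7.70 CPM in control. The IR libraries were the highest, the control libraries the lowest, and the 3 groups did not overlap. SDF2L1 rose 3.71-fold in IR against control (log2 fold change 1.89 ± 0.32 SE, edgeR adjusted p = 0.0403).

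CRELD2 (Entrez 100520025, chromosome 5, 709042 to 716766) encodes a disulfide isomerase-like protein of the ER. It had 85.7 and 94.9 CPM in IR, 57.7 and 41.9 CPM in IR_Pra, and 28.2 and 25.3 CPM in control. Again each IR library lay above each IR_Pra library, and each of these above each control library. CRELD2 rose 3.38-fold in IR against control (log2 fold change 1.75 ± 0.25 SE, edgeR adjusted p = 0.037).

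MANF (Entrez 100505460, chromosome 13, 33658279 to 33662218) encodes an ER protein that binds BiP and is also secreted as a trophic factor. It had 95.8 and 78.2 CPM in IR, 53.6 and 44.6 CPM in IR_Pra, and 32.7 and 25.6 CPM in control. The order of the libraries was the same as for CRELD2, with no overlap between groups. MANF rose 2.98-fold in IR against control (log2 fold change 1.58 ± 0.26 SE, edgeR adjusted p = 0.0391).

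These calls depend on which libraries share the estimate of the spread. When either control library or either IR_Pra library was left out, 0 of the 35 genes and 0 of all genes passed, with the log2 fold changes of the 3 genes between 1.49 and 2.32. Without IR 1, 8 members passed as higher and TRIB3 as lower (28.3% of all genes were called). Without IR 2, 8 passed as higher, and ERN1 and EIF2AK3 as lower (17.5% of all genes).

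**Figure D2:**
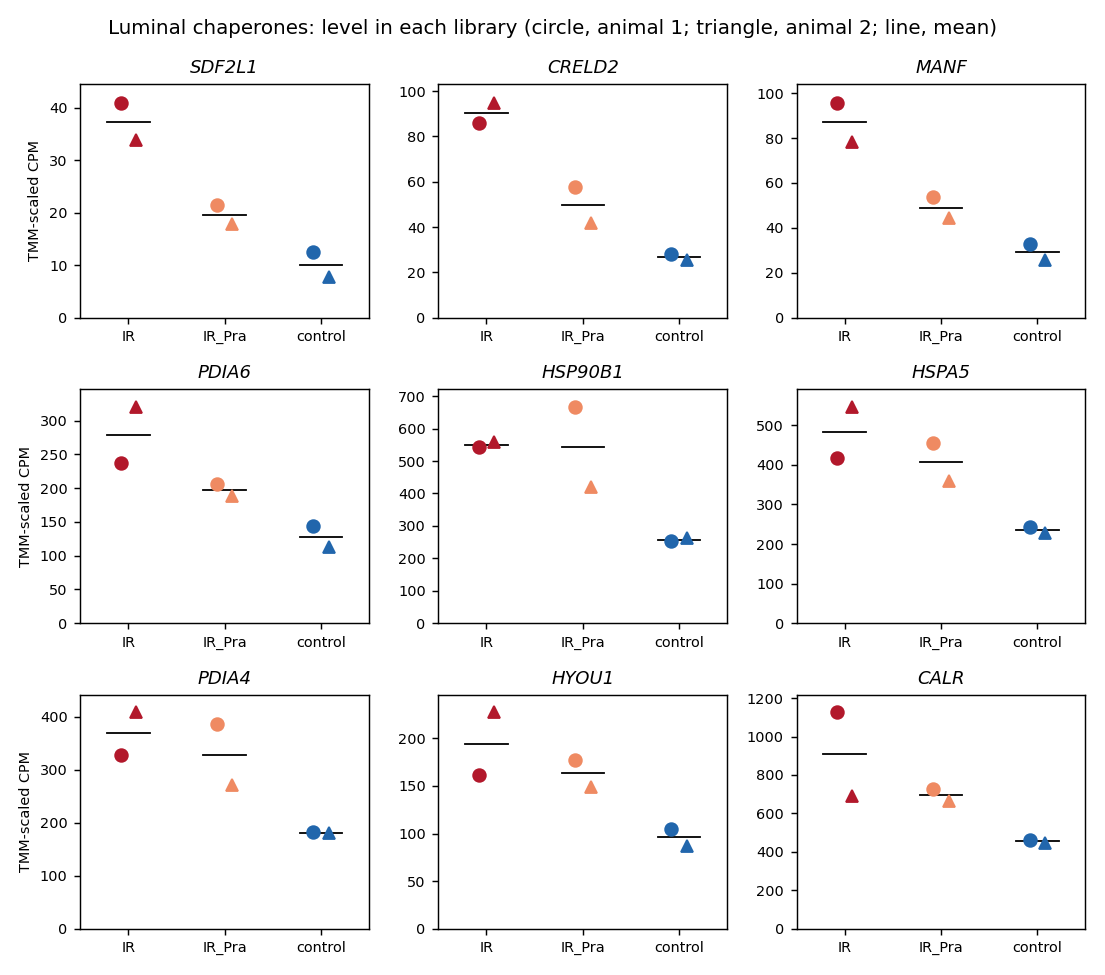
CPM (linear axis from 0) of 9 ER chaperones and folding enzymes in each library of IR, IR_Pra and control; circles are animal 1, triangles animal 2, and lines the mean of 2 animals. SDF2L1, CRELD2 and MANF step down from IR through IR_Pra to control without overlap, while for HSPA5 and HSP90B1 the IR and IR_Pra points mix and lie above both control points.

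The other chaperones and folding enzymes had smaller differences. HSPA5 (Entrez 407060, chromosome 1, 265930044 to 265934959) encodes BiP, the HSP70 chaperone of the ER that also holds the 3 sensors inactive. It had 417.8 and 547.2 CPM in IR, 455.8 and 360.4 CPM in IR_Pra, and 244.2 and 227.4 CPM in control. Both irradiated groups lay above control, and they overlapped each other. In IR against control the log2 fold change was 1.03 ± 0.30 (edgeR adjusted p = 0.0845). HSP90B1 (Entrez 397191, chromosome 5, 80511513 to 80531016), the HSP90 chaperone of the ER known as GRP94, had 543.3 and 558 CPM in IR, 666.6 and 420.5 CPM in IR_Pra, and 252.4 and 262.3 CPM in control. Here IR_Pra held the highest library of all, and the 4 irradiated animals lay above both controls. Its log2 fold change in IR against control was 1.10 ± 0.33 (edgeR adjusted p = 0.092).

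Other folding enzymes and chaperones likewise did not pass. The log2 fold change in IR against control was 1.12 ± 0.28 for PDIA6 and 1.03 ± 0.30 for PDIA4, both disulfide isomerases, 1.02 ± 0.28 for HYOU1, an ER chaperone that exchanges the nucleotide of BiP, 0.97 ± 0.31 for DNAJB11, a J-protein that feeds clients to BiP, 0.995 ± 0.36 for CALR and 0.59 ± 0.26 for PDIA3. The edgeR adjusted p ran from 0.0666 for PDIA6 to 0.198 for PDIA3. CALR was spread widely within IR, with 1126 and 692 CPM there, against 463.5 and 448.4 CPM in control. The remaining members of this group lay closer to 0: log2 fold changes were 0.27 ± 0.29 for DNAJC3, a J-protein that also restrains PERK, -0.06 ± 0.30 for DNAJB9, a J-protein that represses IRE1, and -0.23 ± 0.28 for CANX (calnexin, the membrane-bound partner of calreticulin).

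Of the 14 chaperones and folding enzymes, 12 had both IR libraries above both control libraries and CANX had both below. Across all genes tested, 29.8% had both IR libraries above control and 30% had both below. The median log2 fold change of the 14 was 1.02, against 0.03 over all genes tested. Summed, the 14 genes took 0.327% and 0.371% of counts in IR, 0.388% and 0.294% in IR_Pra, and 0.207% and 0.197% in control. Both irradiated groups gave this machinery a larger share of their RNA than either control animal did. DESeq2 called 9 of the 14 as higher in IR than in control, adding HSPA5, HSP90B1, PDIA4, PDIA6, CALR and HYOU1 (22.7% of all genes were called by it).

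The summed markers of several cell types were, like the chaperones, higher in IR than in control. The summed level of 10 plasma cell markers was 1944 and 2599 CPM in IR, 1861 and 1347 CPM in IR_Pra, and 740.5 and 935.4 CPM in control. Its most abundant member was JCHAIN, the joining chain of secreted antibodies, with 1100 and 1840 CPM in IR, 1170 and 730 CPM in IR_Pra, and 236 and 483 CPM in control. The list did not move together. TNFRSF17, the survival receptor of plasma cells, rose in IR (log2 fold change 1.73 ± 0.29, edgeR adjusted p = 0.0403), as did TXNDC5. TXNDC5 and FKBP11 on this list are also among the further ER folding genes described below, so the list is not separate from the folding machinery. FCRL5, a receptor of B lineage cells, fell, with 2.67 and 3.18 CPM in IR, 12.1 and 27.2 CPM in IR_Pra, and 19.8 and 11.5 CPM in control (log2 fold change -2.42 ± 0.50). Of the 10, 5 lay above control without overlap in IR and 3 below, FCRL5, PRDM1 and POU2AF1, against 29.8% and 30% of all genes. The sum of 8 fibroblast markers was 8029 and 24750 CPM in IR, 6930 and 4741 CPM in IR_Pra, and 1905 and 3198 CPM in control, and that of 7 macrophage markers 3465 and 3659, 1196 and 1813, and 710.5 and 720.6 CPM in the same groups. Most of the fibroblast sum came from the collagens COL1A1, COL1A2 and COL3A1. Of the 7 macrophage markers 5 passed as higher, against 3.39% of all genes, and all 7 lay above control without overlap in IR. Of the 8 fibroblast markers 0 passed, and 7 lay above control without overlap in IR. PDGFRA lay below, with 63 and 56.3 CPM in IR and 70.3 and 74.7 CPM in control. The sum of 6 smooth muscle markers was 31430 and 66200 CPM in IR, 19180 and 13270 CPM in IR_Pra, and 5604 and 11510 CPM in control. All 6 had both IR libraries above both controls, and 1 of them, ACTA2, passed. The sum of 6 B cell markers ran the other way, with 28.6 and 57.5 CPM in IR, 136.4 and 334 CPM in IR_Pra, and 399.8 and 240.8 CPM in control. The part of these cells in the chaperone levels was not tested.

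Markers of the epithelium differed between the IR animals. The sum of 9 goblet cell markers was 14540 CPM in IR 1 and 1558 CPM in IR 2, against 11630 and 8054 CPM in control, and the sum of 8 general epithelial markers was 5622 and 1381 CPM in IR, against 5219 and 6431 CPM in control. Of the goblet cell markers only ATOH1 passed, and it was lower in both IR animals. It had 12.7 and 8.32 CPM there and 39.6 and 30.3 CPM in control (log2 fold change -1.73 ± 0.34, edgeR adjusted p = 0.0463). The other 8 overlapped between IR and control. The summed CPM of the 14 chaperones and folding enzymes was 3776 in IR 1 and 3624 in IR 2, against 2071 and 1936 in control. The 4 Paneth cell markers in the table, 1 of them at 0 in all libraries, summed to 393.9 and 478 CPM in IR, 346.5 and 439 CPM in IR_Pra, and 274 and 309.9 CPM in control. The sums lay above control in both irradiated groups, but LYZ and ITLN2, which made up nearly all of them, each overlapped with control in both. LYZ had 117 and 435 CPM in IR and 177 and 255 CPM in control. ITLN2 had 276 and 43 CPM in IR and 97.3 and 55 CPM in control. MMP7 was at 0.263 CPM or less in every library. The part of epithelial cells in the chaperone levels was not tested. Pancreatic acinar markers, 8 in the table, summed to 12.8 CPM or less in every library, and CTRC and PNLIP were at 0 in all 6.

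The 4 genes of translocation into the ER did not separate the groups in IR against control. These are SEC61A1 and SEC61B, subunits of the channel, and SSR1 and SSR3, subunits of the translocon-associated protein complex. All 4 overlapped between IR and control, with log2 fold changes from 0.11 ± 0.34 for SSR1 to 0.50 ± 0.31 for SEC61B. In SSR3 the IR libraries lay on either side of the controls: it had 144.4 and 74.8 CPM in IR, 101.1 and 99.8 CPM in IR_Pra, and 98.3 and 96.8 CPM in control.

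Genes of ER-associated degradation had a median log2 fold change of -0.33 in IR against control, opposite in sign to the chaperones, and 0 of 7 passed. EDEM1, a lectin that picks misfolded glycoproteins for degradation, had 21.7 and 40.2 CPM in IR, 67.5 and 39.7 CPM in IR_Pra, and 62.9 and 43.6 CPM in control (IR against control -0.78 ± 0.42, edgeR adjusted p = 0.265). SEL1L and SYVN1, the adaptor and the ubiquitin ligase of the main degradation complex, likewise had both IR libraries below both control libraries, at -0.43 ± 0.27 and -0.33 ± 0.26. Of the 7, 3 thus lay below control without overlap and 0 above, against 30% and 29.8% of all genes. DERL3, a retrotranslocation channel component, had 16.1 and 12.04 CPM in IR, 16.7 and 23.2 CPM in IR_Pra, and 24.9 and 13.7 CPM in control, so that each irradiated group overlapped with control. HERPUD1, DERL1 and DERL2 also overlapped, at log2 fold changes from -0.14 to 0.10.

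All 3 sensors had both IR libraries below both control libraries, as 30% of all genes did, and 0 of 3 passed. EIF2AK3 had 14.2 and 24.1 CPM in IR, 36.4 and 29.9 CPM in IR_Pra, and 36.8 and 30.4 CPM in control. The IR libraries lay below all others, and the IR_Pra libraries overlapped with the controls. The log2 fold change in IR against control was -0.81 ± 0.32 (edgeR adjusted p = 0.159). ERN1 had 14.2 and 27.5 CPM in IR, 32.1 and 27.1 CPM in IR_Pra, and 33.1 and 31.6 CPM in control (-0.63 ± 0.35, edgeR adjusted p = 0.277). ATF6 had 34.6 and 37.2 CPM in IR, 59.4 and 25.1 CPM in IR_Pra, and 49.5 and 47.8 CPM in control (-0.44 ± 0.41, edgeR adjusted p = 0.5). For ERN1 and EIF2AK3, IR 1 was the lowest library of all, and for ATF6 the lowest and the highest were both IR_Pra.

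The transcription factors of the response were nearly level at the RNA. XBP1, whose protein is controlled by splicing of its mRNA, had 139.3 and 121.4 CPM in IR, 166.4 and 128.1 CPM in IR_Pra, and 134.1 and 122.8 CPM in control. Gene-level counts do not separate its spliced and unspliced forms. ATF4, whose protein is controlled mainly at translation, had 298.5 and 304.1 CPM in IR, 221 and 256.8 CPM in IR_Pra, and 292 and 265.9 CPM in control. DDIT3, the factor CHOP that acts in stress-induced cell death, had 20.4 and 21.9 CPM in IR, 11.14 and 17.3 CPM in IR_Pra, and 17.8 and 16.6 CPM in control. In IR against control the log2 fold changes were 0.02 ± 0.24 for XBP1, 0.11 ± 0.24 for ATF4 and 0.30 ± 0.29 for DDIT3, within or near their standard errors.

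**Figure D3:**
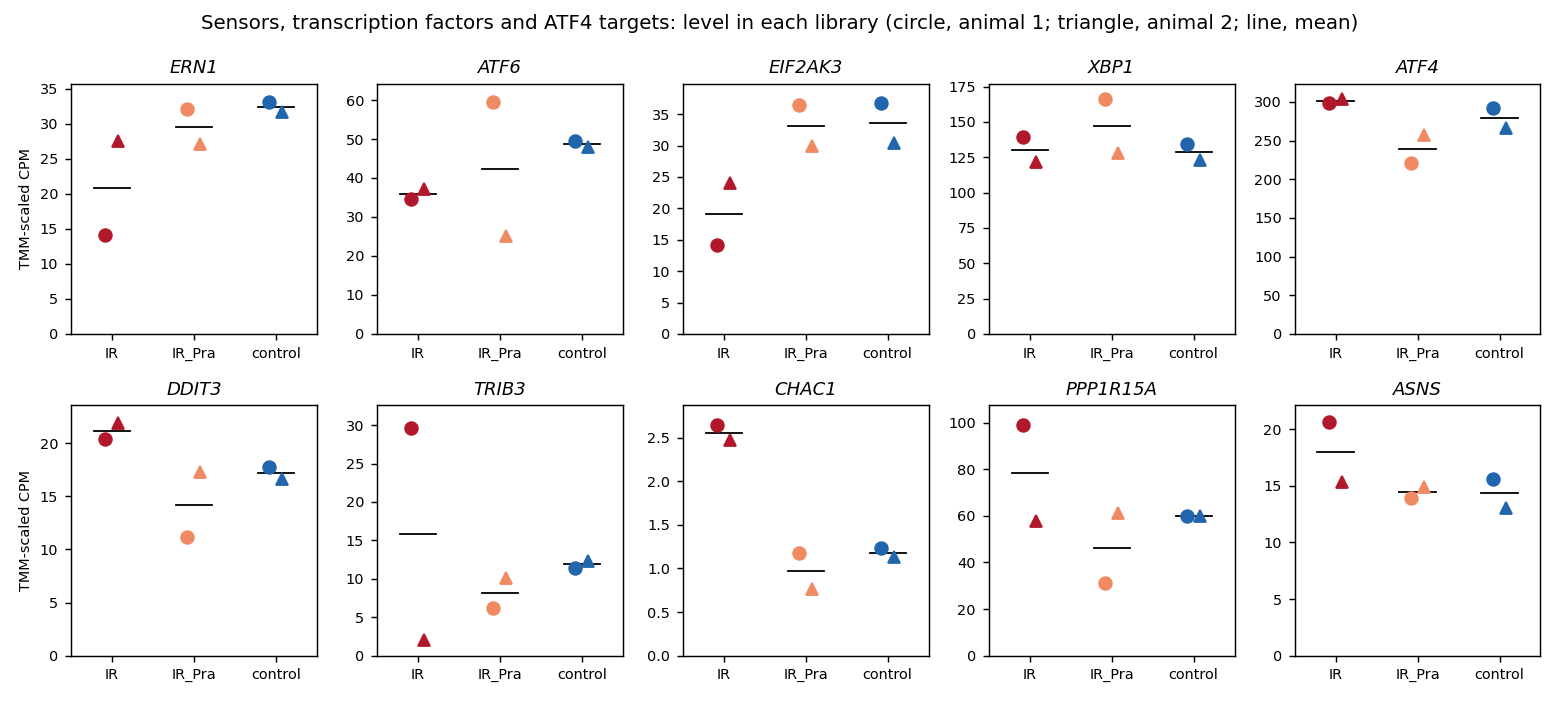
CPM (linear axis from 0) of 10 sensors, transcription factors and ATF4 target genes in each library of IR, IR_Pra and control; circles are animal 1, triangles animal 2, and lines the mean of 2 animals. EIF2AK3 is lower in both IR animals than in the other 4. ERN1 lies below control in both IR animals, but IR 2, at 27.5 CPM, overlaps with IR_Pra. ATF4 is lower in both IR_Pra animals than in the other 4, and TRIB3 lies at 29.6 CPM in IR 1 and 2.03 CPM in IR 2.

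Of the targets of ATF4, CHAC1 lay above control in both IR animals and the other 3 differed mainly between the IR animals. CHAC1 had 2.64 and 2.47 CPM in IR, 1.18 and 0.769 CPM in IR_Pra, and 1.23 and 1.13 CPM in control. The IR libraries agreed closely and lay above the other 4. Its log2 fold change in IR against control was 1.11 ± 0.42 and did not pass (edgeR adjusted p = 0.146). TRIB3, a pseudokinase induced by ATF4 and CHOP, had 29.6 and 2.03 CPM in IR, 6.26 and 10.1 CPM in IR_Pra, and 11.4 and 12.4 CPM in control. IR 1 was the highest and IR 2 the lowest of the 6 libraries, so the IR mean describes neither animal, and the log2 fold change of 0.41 ± 1.04 turned to -2.55 when IR 1 was left out.

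PPP1R15A, which directs the phosphatase that ends the PERK signal, had 98.9 and 58.0 CPM in IR, 31.2 and 61.3 CPM in IR_Pra, and 59.9 and 59.9 CPM in control. ASNS, asparagine synthetase, had 20.7 and 15.3 CPM in IR, 13.9 and 14.9 CPM in IR_Pra, and 15.6 and 13.0 CPM in control. In both genes IR 1 was the highest library and IR 2 lay close to the controls. The log2 fold changes in IR against control were 0.39 ± 0.41 and 0.33 ± 0.27. Over the ATF4 arm the median was 0.33, and over the chaperone arm 0.14, with 0 of 7 and 3 of 28 genes called.

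Transcript length ran alongside these differences. Lengths worked out from counts and FPKM ran from 601 to 7162 nt among the 35 genes, with a median of 2631 nt. Across the 35 genes the Spearman correlation between length and log2 fold change in IR against control was -0.60, and across all genes tested -0.20. With the ratio of a single library to control, it was -0.56 for IR 1 and -0.49 for IR 2 across the 35 genes. Across all genes it was -0.35 for IR 1 and -0.04 for IR 2. All of these points share the same few libraries. The sensors and EDEM1 and SEL1L are long, and SDF2L1 and MANF are short. Among the 14 chaperones and folding enzymes the Spearman correlation was -0.52, and over the 28 genes of the chaperone arm -0.61. The 4 shortest of the 14, MANF, SDF2L1, PDIA6 and CRELD2, had the 4 highest log2 fold changes. The median was 1.02 for the 6 chaperones at or above 2631 nt and 1.06 for the 8 below it. The part of length in these differences was not tested beyond the fit that follows.

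With the length trend of each library removed before the fit, SDF2L1, CRELD2 and MANF still passed, at log2 fold changes of 1.66, 1.59 and 1.34, and HYOU1 passed at 1.19 ± 0.22 (edgeR adjusted p = 0.0453), for 4 called of 35 against 5.72% of all genes. Members of 2990 nt or more moved upwards, while HSPA5, HERPUD1, DERL3 and HSP90B1, at 2650 to 2873 nt, moved slightly down. Of the longer ones, those below 0 came closer to it, with ERN1 at -0.36, ATF6 at -0.09, SEL1L at -0.11, EDEM1 at -0.53 and EIF2AK3 at -0.64. Those above 0 moved away from it, with DERL2 at 0.33, SSR1 at 0.19 and SEC61A1 at 0.51. The length of SEC61A1 is itself uncertain, as it ran from 3587 to 10116 nt between libraries.

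**Figure D4:**
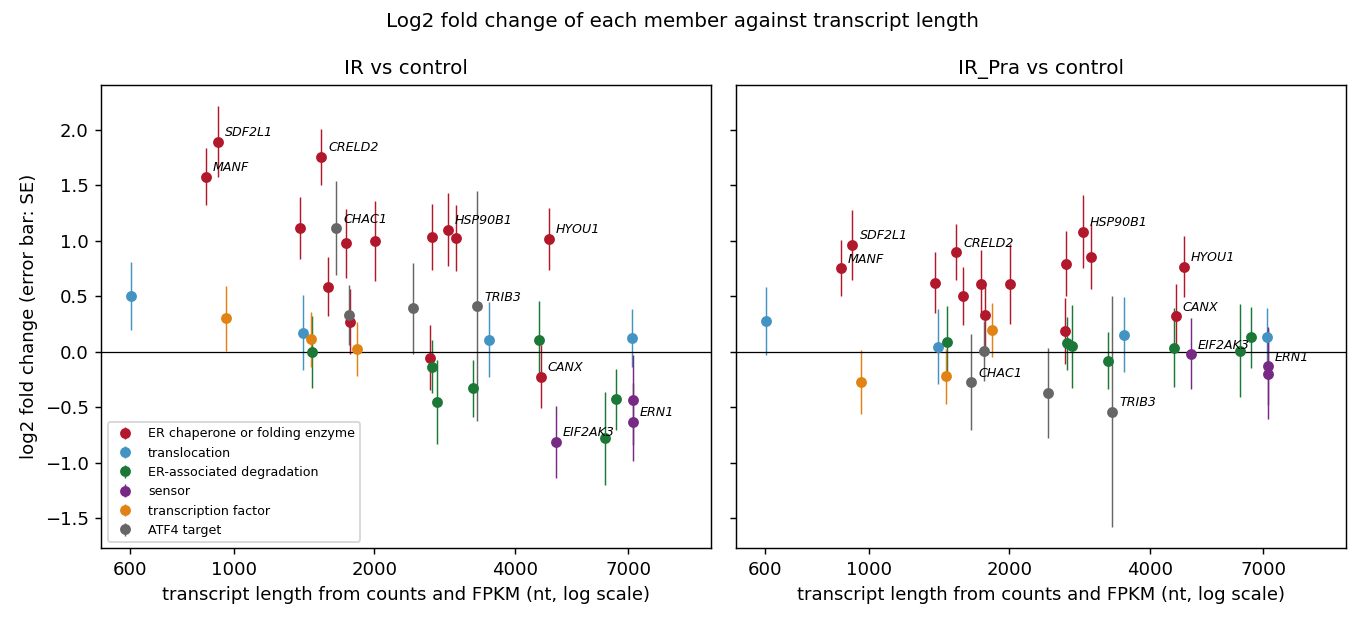
Log2 fold change (points, with SE bars) of the 35 genes against transcript length in nt (log axis), coloured by role, in IR vs control (left) and IR_Pra vs control (right). Most chaperones (red) lie near or above 1 on the left, from MANF at 870 nt to HYOU1 at 4728 nt, while the sensors, at 4892 to 7162 nt, lie below 0 on the left and close to 0 on the right.

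Further genes of the same pathways gave a wider view of IR against control. Of 21 other ER folding and oxidation genes, 5 rose and 0 fell, against 3.39% of all genes that rose and 2.68% that fell, with a median log2 fold change of 0.79. They were SIL1, a nucleotide exchange factor of BiP, CRELD1, a relative of CRELD2, PPIB, a prolyl isomerase that works on collagen, TXNDC5, a disulfide isomerase, and NUCB2, a calcium-binding protein. SIL1 had 61.5 and 69.6 CPM in IR, 27.4 and 28.5 CPM in IR_Pra, and 15.5 and 23.1 CPM in control (log2 fold change 1.76 ± 0.27, edgeR adjusted p = 0.037). PPIB had 424 and 375 CPM in IR, 227 and 223 CPM in IR_Pra, and 160 and 145 CPM in control (1.39 ± 0.24, edgeR adjusted p = 0.0418). TXNDC5, which is also on the plasma cell list, had 390 and 500 CPM in IR, 314 and 245 CPM in IR_Pra, and 161 and 166 CPM in control (1.44 ± 0.28, edgeR adjusted p = 0.0473). In all 3 genes IR was the highest group and control the lowest, without overlap.

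Of 26 other genes of the ATF4 and amino acid response, 3 rose and 1 fell (3.39% and 2.68% of all genes), with a median log2 fold change of 0.35. ATF3, a stress-induced transcription factor, had 57.1 and 39.8 CPM in IR, 15.6 and 16.1 CPM in IR_Pra, and 7.55 and 4.76 CPM in control (2.98 ± 0.35, edgeR adjusted p = 0.0359). PYCR1, an enzyme of proline synthesis, and CEBPB, a transcription factor that partners ATF4 and also acts in inflammation, rose by log2 fold changes of 2.22 ± 0.29 and 2.61 ± 0.38 (edgeR adjusted p = 0.037 each). STC2, a secreted glycoprotein, fell, with 1.37 and 1.23 CPM in IR, 1.91 and 3.02 CPM in IR_Pra, and 6.42 and 7.68 CPM in control (-2.44 ± 0.40, edgeR adjusted p = 0.0391).

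The remaining lists held fewer calls. Of 23 other translocation and glycosylation genes and of 18 other ER degradation genes, 0 passed in either direction, with median log2 fold changes of 0.27 and 0.14. Of 25 genes of ER export and Golgi traffic, with a median of -0.01, 1 rose (3.39% of all genes), CREB3L1, an ER-bound transcription factor, with 60.8 and 58.2 CPM in IR, 42.9 and 42.1 CPM in IR_Pra, and 28.6 and 24.0 CPM in control (1.18 ± 0.22, edgeR adjusted p = 0.0437). Of 12 cytosolic heat shock chaperones tested, 2 rose (3.39% of all genes), the small heat shock genes HSPB1 and CRYAB, with a median log2 fold change of 0.06 over the 12. HSPB1 had 914 and 795 CPM in IR, 219 and 223 CPM in IR_Pra, and 167 and 171 CPM in control (2.34 ± 0.28, edgeR adjusted p = 0.0359). Both are abundant in smooth muscle, and the part of muscle in these levels was not tested.

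The second comparison asked what differed in irradiated animals that received pravastatin. In IR_Pra against IR, 0 of the 35 genes passed in edgeR's quasi-likelihood test, when 0.0055% of all genes did, so the fit called almost nothing anywhere. At an unadjusted p under 0.05, 4 of the 35 members were lower in IR_Pra and 0 higher, when 12.8% of all genes were lower and 11.7% higher (24.5% in all). The share of members that were lower was thus no larger than that of all genes. The 4 were the 3 genes that rose in IR and CHAC1. Log2 fold changes in IR_Pra against IR were -0.93 ± 0.31 for SDF2L1, -0.86 ± 0.25 for CRELD2, -0.83 ± 0.25 for MANF and -1.39 ± 0.43 for CHAC1 (edgeR adjusted p from 0.12 for CRELD2 to 0.15 for SDF2L1). Since these IR libraries also enter the comparison with control, the values are not independent of those above. DESeq2 called CRELD2 and CHAC1 as lower in IR_Pra, and 15.9% of all genes in either direction.

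Across the 35 genes, 6 had both IR_Pra libraries above both IR libraries and 8 had both below, or 17.1% and 22.9%, against 27.3% and 26.6% of all genes. The log2 fold change was above 0 for 15 of 35, against 49.1% of all genes. Among the abundant chaperones, log2 fold changes in IR_Pra against IR were below their standard errors for HSPA5 (-0.24 ± 0.29), HSP90B1 (-0.02 ± 0.32), PDIA3 (-0.08 ± 0.26), PDIA4 (-0.17 ± 0.29) and HYOU1 (-0.25 ± 0.28). They exceeded them for CALR (-0.39 ± 0.36), CANX (0.55 ± 0.29) and PDIA6 (-0.50 ± 0.28). Both IR_Pra libraries lay below both IR libraries for PDIA6 and above them for CANX, while for CALR the groups overlapped. The sign of 8 of the 14 chaperones, HSP90B1, PDIA4 and HYOU1 among them, changed under at least 1 other setting. The ATF4 arm had a median of -0.57 and the chaperone arm of 0.00, with 6 of the 7 genes of the ATF4 arm below 0. ATF4 itself (-0.33 ± 0.24), DDIT3 (-0.57 ± 0.29), CHAC1 and ASNS had both IR_Pra libraries below both IR libraries. These were 4 of the 7 genes (57.1%), against 26.6% of all genes. EIF2AK3 ran the other way, at 0.79 ± 0.32 (edgeR adjusted p = 0.204). Of the 7 genes of ER-associated degradation, 6 were above 0 in IR_Pra against IR, with a median of 0.25, and HERPUD1, SEL1L, SYVN1 and DERL3 had both IR_Pra libraries above both IR libraries. The 4 translocation genes overlapped between IR_Pra and IR, with log2 fold changes from -0.22 for SEC61B to 0.05 for SSR1. Length ran alongside these differences too, with a Spearman correlation of 0.63 across the 35 genes and 0.225 across all genes. With the length trend removed, EDEM1 went from 0.79 to 0.48, SEL1L from 0.56 to 0.19 and EIF2AK3 from 0.79 to 0.57. SDF2L1 and MANF were then at -0.79 and -0.69, while HERPUD1 and DERL3 changed little. The part of length was not tested further.

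The third comparison set irradiated animals on pravastatin against controls. In IR_Pra against control 0 of the 35 genes passed in edgeR's quasi-likelihood test, and 0% of all genes did. At an unadjusted p under 0.05, 7 members were higher and 0 lower, when 3.42% of all genes met that threshold in either direction and 2.4% were higher. All 7 were chaperones or folding enzymes: HSPA5, HSP90B1, PDIA4, SDF2L1, CRELD2, MANF and HYOU1. The log2 fold changes were 1.08 ± 0.33 for HSP90B1, 0.96 ± 0.31 for SDF2L1, 0.90 ± 0.25 for CRELD2 and 0.79 ± 0.29 for HSPA5. DESeq2 called 0 members and 72 genes in all.

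All 14 chaperones and folding enzymes had a log2 fold change above 0 in IR_Pra against control, with a median of 0.68 against 0.01 over all genes (26 of the 35 genes, and 50.6% of all genes, were above 0), and 11 of them had both IR_Pra libraries above both control libraries. Across all genes, 20.8% had both IR_Pra libraries above control and 20% had both below. CANX, DNAJB9 and DNAJC3 were the 3 that overlapped, and their sign changed when IR_Pra 1 was left out. HSP90B1 and CANX show how far the IR_Pra animals differed: HSP90B1 had 666.6 CPM in IR_Pra 1 and 420.5 CPM in IR_Pra 2, and CANX 390.8 and 263.1 CPM there. The 7 genes of ER-associated degradation all overlapped with control, with log2 fold changes from -0.08 to 0.13. The 4 translocation genes ran from 0.04 for SSR3 to 0.28 for SEC61B, and all but SSR1 lay above control without overlap. Of the ATF4 arm, 6 of 7 genes were below 0, with a median of -0.27; ATF4 and TRIB3 had both IR_Pra libraries below both control libraries, at -0.22 ± 0.24 and -0.54 ± 1.04.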

How the data were processed

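RNA of small intestine from 6 minipigs, 1 library per animal, was sequenced on an Illumina platform. The deposited table gives read counts per gene and library, per the file headers, with FPKM values beside them, also deposited by the authors. The submitters' processing notes name bcl2fastq 2.20.0, Trimmomatic, HISAT2 2.1.0, StringTie 2.1.3b and the builds Sscrofa11.1 and GRCh38. The role of GRCh38, the way counts were made and whether they used strand are not given in the sources used here. Another 24 rows had no gene name (0.00906% to 0.0385% of counts) and were left out.

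Counts were tested in R 4.3.3 with edgeR 4.0.16: TMM scaling, filterByExpr, and 1 bias-adjusted quasi-likelihood fit of the 6 libraries by group, which left 3 residual degrees of freedom. F tests were two-sided, with Benjamini-Hochberg adjustment over 18197 genes and a threshold of 0.05. The common biological coefficient of variation was 0.431. CPM are counts divided by the TMM-scaled library size. The SE of a log2 fold change came from its F statistic. The steps were tested on simulated data. An exact test of a single value, 2 animals against 2, cannot go below p = 0.333, and none was used. Coordinates are those of RefSeq for Sscrofa11.1, to which 35 of 35 members matched.

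The members and lists were chosen with earlier results of these data known. Values per library are given for members past the threshold and for a set list of chaperones, sensors, factors and targets, and from each of 6 further lists for up to 4 genes with the smallest p, and TXNDC5, the only other gene called. In these lists 6 genes matched by an older symbol and 2 were not analysed here. Alternatives were DESeq2 1.42.0, limma 3.58.1 (voom, and trend on log2(FPKM + 1)), scaling by DESeq2's size factors or by library size, the low-count filter dropped or set at 5 CPM in 2 libraries, a loess offset on transcript length, the replicate number as a block, a fit of 4 libraries and each library left out in turn. Chosen after seeing the data was edgeR's earlier quasi-likelihood fit.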

Additional observations from a re-analysis of the deposited data

How the results depend on the processing

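In IR against control the count of members past the threshold was 3; it was 9 with DESeq2, 0 with the replicate number as a block, 0 in a fit of only the 4 libraries compared, and 0 to 10 when each library was left out. It was 2 to 4 under the other settings. SDF2L1, CRELD2 and MANF kept their direction in every setting, at log2 fold changes of 1.66 to 2.32, 1.59 to 1.87 and 1.34 to 1.81. With the replicate block their edgeR adjusted p was 0.0777 for SDF2L1 and 0.0792 for CRELD2 and MANF. The numbers come from separate animals, and same-numbered libraries did not deviate together (Pearson r across genes 0.08, -0.09 and -0.11). With 2 libraries a group, these values cannot show whether the numbers mark a shared batch. The block changed no call in the other comparisons for the members. In IR_Pra against IR the count was 0, with 2 under DESeq2 and 0 to 3 when each library was left out; in IR_Pra against control it was 0 in every setting.

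The median log2 fold change of the chaperone arm ran, when each library was left out, from -0.053 to 0.49 in IR against control, -0.24 to 0.15 in IR_Pra against IR and 0.11 to 0.41 in IR_Pra against control. That of the ATF4 arm ran from 0.093 to 0.53, -0.98 to -0.33 and -0.34 to -0.13 in the same comparisons, and was -0.18 in IR_Pra against IR on log2(FPKM + 1). TRIB3 turned past the threshold without IR 1, with a range over left-out libraries of -2.55 to 1.31 in IR against control and -1.85 to 2.01 in IR_Pra against IR. With all libraries it also changed sign, without passing, under limma voom (-0.77 and 0.19) and, in IR against control, on log2(FPKM + 1); its levels in IR 1 and IR 2 lie on either side of the other libraries. A lone library in a group was assumed to vary like the other groups.

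Over all genes, 1103 were called in IR against control (616 higher); 4131 with DESeq2, 790 with the earlier quasi-likelihood fit, 475 with library size alone (182 higher), 403 on log2(FPKM + 1), 0 with the block or 4 libraries, and 0 to 5342 with libraries left out. In IR_Pra against IR library size alone moved the median of all genes to 0.14, against -0.02. The cause of these shifts was not tested. Among the members, depth is lowest for CHAC1, with 41 to 187 counts a library, and for TRIB3 in IR 2, with 154.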

Other observations

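SEC61A1, the pore of the translocation channel, gave different pictures in the 2 deposited units. Its counts were 245.4 and 174.5 CPM in IR, 208.2 and 215.2 CPM in IR_Pra, and 199.9 and 186.2 CPM in control, a spread of 1.41-fold over the 6 libraries. Its FPKM were 21.0 and 49.8 in IR, 60.3 and 22.6 in IR_Pra, and 42.2 and 19.8 in control. The transcript length that links the 2 units ran from 3587 to 10116 nt between libraries, a 2.82-fold range, against 1.01-fold for HSPA5. Its FPKM are therefore not comparable between libraries, and levels of this gene were compared by CPM.

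In IR_Pra against IR, 0 genes of the further ER lists passed, and single genes ran both ways. Of the 21 other ER folding and oxidation genes, 17 were below 0, with a median log2 fold change of -0.64, and 12 had both IR_Pra libraries below both IR libraries (57.1%, against 26.6% of all genes). The lowest p among them were those of CRELD1 (-0.99 ± 0.21), SIL1 (-1.23 ± 0.27) and, against the direction of the list, UGGT1. UGGT1, which re-tags misfolded glycoproteins for another folding cycle, had 72.9 and 57.1 CPM in IR_Pra and 32.5 and 25.6 CPM in IR, against 62.3 and 50.1 CPM in control (IR_Pra against IR 1.16 ± 0.26, edgeR adjusted p = 0.0936). EDEM3, a mannosidase of degradation, had 74.7 and 44.5 CPM in IR_Pra and 18.9 and 23.3 CPM in IR, against 55.8 and 47.6 CPM in control (1.497 ± 0.32, edgeR adjusted p = 0.0881). STT3B, a catalytic subunit of oligosaccharyltransferase, had 126 and 103 CPM in IR_Pra and 51.9 and 60.9 CPM in IR, against 101 and 94.7 CPM in control (1.02 ± 0.23, edgeR adjusted p = 0.0936). In UGGT1, EDEM3 and STT3B, picked after their values were seen from the genes with the lowest p of their lists, both IR libraries lay below the other 4.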
